A study of Mus musculus with 21 samples.

Results

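Here 10 immediate-early transcription factor genes of the AP-1 and EGR families were followed through sorted blood-forming cells of mice with a leukemia-like disease. They are Fos, Fosb and Fosl2 of the FOS family, Jun, Junb and Jund of the JUN family, Atf3, and Egr1, Egr2 and Egr3. They were found by symbol in an Ensembl-based annotation, and all 10 were present among the 45706 genes of each count table. All 10 passed the filter on low counts, which kept 19555 genes. Passing says little for Egr3, which had 0 counts in 3 of the 21 libraries.

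The libraries come from a mouse model of juvenile myelomonocytic leukemia, in which MxCre;Ptpn11D61Y/+ mice express an activated SHP2 phosphatase after the Mx promoter of the Cre transgene is switched on by polyI:C. The S3 libraries are from such mice at stage 3, when they were terminally ill. The controls were MxCre mice, which carry the Cre but no mutant allele, and Ptpn11D61Y/+ mice, which carry the mutant allele without Cre, so that a stop cassette keeps it silent. The study's supplement likens the Ptpn11D61Y/+ mice to a heterozygous knock-out, since only their normal allele is functional. According to the study's methods all mice were injected with polyI:C, including the controls, whereas the sample labels state no treatment. Sex, age and strain are not given in the labels. Because the Mx promoter answers to interferon in many cell types, recombination is not limited to blood-forming cells in this model.

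In all, 3 fractions were sequenced. LSK cells are lineage-negative, Sca1+ cKit+ stem and progenitor cells of the BM. CD11b+ cells are myeloid cells and were taken from the BM and from the spleen with magnetic columns. Each fraction has 2 MxCre libraries, 2 Ptpn11D61Y/+ libraries and 3 S3 libraries. S3 libraries carry the number of the mouse, with 540 and 815 present in every fraction, 640 in the CD11b+ cells of both organs and 768 among the LSK cells. For the control libraries the labels give only a replicate number, so that their p-values measure the spread between these samples, which may in part be technical. Total counts ran from 34992610 to 104509425 per library with a median of 69421661.

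Some libraries stood apart before any of the 10 genes was examined. Fewest genes had a count in spleen MxCre 1 (14641), BM S3 815 (14761) and BM MxCre 1 (14885), whereas LSK libraries had between 22718 and 24220. Xist, which is transcribed from the inactive X of females, and the Y-linked gene Ddx3y were both counted in BM MxCre 2 (2834 and 353 counts), BM S3 540 (2780 and 173) and spleen S3 540 (712 and 1275). The LSK library of the same animal 540 had 1 Xist count and 5083 Ddx3y counts. Spleen Ptpn11D61Y/+ 1 had 4753 Xist counts and 0 Ddx3y counts, while the LSK and BM libraries with that number had 17 and 1 Xist counts against 7357 and 1113 Ddx3y counts. In the same spleen library 3.79% of counts were on mitochondrial genes (95% Wilson interval 3.78 to 3.79%, counting error only), against 0.164 to 1.1% in the other 20 libraries. Leaving out BM S3 540, spleen S3 540 or spleen Ptpn11D61Y/+ 1 left the counts of called genes at 0 in the comparisons of S3 with Ptpn11D61Y/+ and in the interaction tests below, and at 5 in S3 CD11b+ against LSK cells.

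The targeted gene Ptpn11 was measured first. Its level does not report the mutation, since the counts do not separate the alleles. It was 6.79 and 6.86 log2 CPM (read counts scaled by TMM-adjusted library size, on the log2 scale with a prior count of 2) in LSK MxCre, 6.0 and 5.92 in LSK Ptpn11D61Y/+ and 7.26, 7.13 and 7.25 in LSK S3. In spleen CD11b+ cells Ptpn11 was 3.87 and 5.26 in MxCre, 5.96 and 5.14 in Ptpn11D61Y/+ and 6.52, 5.90 and 7.13 in S3, so that all S3 libraries were above both MxCre libraries. In BM CD11b+ cells it was 4.46 and 5.42 in MxCre, 5.53 and 5.78 in Ptpn11D61Y/+ and 5.97, 4.72 and 6.89 in S3, where MxCre and S3 overlapped. Ptpn11 differed from MxCre to S3 by 0.39 ± 0.531 (log2, SE) in LSK, 1.09 ± 0.545 in BM and 1.88 ± 0.565 in spleen cells, none past the threshold (adjusted p = 1, 0.344 and 0.0665 by edgeR's quasi-likelihood test, Benjamini-Hochberg adjusted).

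The sort markers fitted the labels for 2 of 3 genes. Itgam, which encodes CD11b, was 151 to 1660 CPM in the CD11b+ libraries and 31.6 to 114 CPM in LSK libraries, and Kit, the receptor used to gate LSK cells, was 288 to 533 CPM in LSK libraries and 4.78 to 73.2 CPM in CD11b+ libraries. Ly6a, which encodes Sca1, did not separate the fractions, with 42.5 to 76.1 CPM in LSK and 3.18 to 313 CPM in CD11b+ libraries.

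AP-1 is a dimer of basic leucine zipper proteins. A FOS protein pairs with a JUN protein, JUN proteins also pair with each other, and ATF3 pairs with JUN proteins and with itself, mostly as a repressor. The EGR proteins are zinc-finger factors that bind GC-rich sites. These genes are known as immediate-early genes because existing factors switch them on within minutes of a stimulus such as a growth factor, a cytokine or cell stress, without new protein. RAS-ERK signaling, which SHP2 feeds, acts on them through SRF and the ternary complex factors at CArG boxes and through CREB at cAMP response elements. In myeloid cells JunB and JunD restrain proliferation, and Egr1 and Egr2 take part in macrophage differentiation.

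On GRCm38, Fos (ENSMUSG00000021250) lies at chr12:85473890-85477273 on the plus strand, Fosl2 (ENSMUSG00000029135) at chr5:32135801-32157842 on the plus strand and Fosb (ENSMUSG00000003545) at chr7:19302696-19310051 on the minus strand. Junb (ENSMUSG00000052837) lies at chr8:84974484-84978718 on the minus strand and Jund (ENSMUSG00000071076) at chr8:70698949-70700616 on the plus strand. Jun (ENSMUSG00000052684) lies at chr4:95049034-95052222 and Atf3 (ENSMUSG00000026628) at chr1:191170296-191218039, both on the minus strand. Egr2 (ENSMUSG00000037868) and Egr3 (ENSMUSG00000033730, chr14:70077203-70082614) are on the plus strand. Jun overlaps the antisense gene Junos, and Junb the protein-coding gene Prdx2, each on the opposite strand. Jund overlaps Gm11175, which had 0 counts, and Atf3 the small RNA gene Gm24748, also on the opposite strand. Without stranded counting, reads of such partners could not be told apart.

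The 250 bases before the RefSeq start of Fos, Junb and Egr2 are printed because these genes went different ways in the comparisons below. They were taken from RefSeq on build GRCm38.p6, 5′ to 3′ on the strand of the gene. Capitals mark the letters TGACG, the core of the cAMP response element on either strand, and the CArG box. The Fos window lies at chr12:85473640-85473889 on the plus strand, the Junb window at chr8:84978749-84978998 on the minus strand and the Egr2 window at chr10:67537619-67537868 on the plus strand. The last is 1 of 5 RefSeq entries for Egr2, and it lies inside the gene as the Ensembl-based annotation draws it (chr10:67535475-67542188).
Fos: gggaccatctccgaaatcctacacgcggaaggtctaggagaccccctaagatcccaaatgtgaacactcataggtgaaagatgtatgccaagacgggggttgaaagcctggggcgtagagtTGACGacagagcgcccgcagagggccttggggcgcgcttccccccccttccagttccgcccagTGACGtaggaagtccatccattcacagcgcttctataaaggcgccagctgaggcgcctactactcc
Junb: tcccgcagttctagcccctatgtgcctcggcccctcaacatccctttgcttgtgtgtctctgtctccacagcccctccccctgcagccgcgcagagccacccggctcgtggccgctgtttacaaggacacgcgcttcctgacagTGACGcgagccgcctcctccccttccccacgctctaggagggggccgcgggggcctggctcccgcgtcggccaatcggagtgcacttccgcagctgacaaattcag
Egr2: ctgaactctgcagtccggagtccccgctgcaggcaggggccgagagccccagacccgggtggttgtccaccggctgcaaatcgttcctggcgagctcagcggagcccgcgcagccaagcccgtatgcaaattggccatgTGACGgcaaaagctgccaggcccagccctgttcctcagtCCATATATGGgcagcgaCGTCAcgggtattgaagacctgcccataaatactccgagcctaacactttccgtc
Counted from the start, TGACG began at -129 and -66 in Fos, at -106 in Junb and at -111 and -55 in Egr2, and the CArG box of Egr2 began at -72. Of the 10 genes, 8 had an entry of 300 bases (250 before and 50 after the start) in the RefSeq promoter set used here. Egr1 and Egr3 had none in that set and are named only. The Jund entry ends before the start of the gene as annotated here, and those of Fosl2 and Atf3 lie inside their genes. Searched on both strands, TGACG stood in 5 of these 8 genes (Fos, Fosb, Junb, Atf3 and Egr2) and in 20.8% of all 32851 such entries. The EGR site GCGNGGGCG stood in Fosb and Fosl2 (5.55% of all entries), TATAAA in Fos and Junb (13.6%) and the CArG box in Egr2 (1.63%), while the AP-1 site TGANTCA (7.81%) and the full element TGACGTCA (1.79%), which contains TGACG, stood in none. A gene was counted when any of its entries matched, while the percentages are of single entries, so that the 2 are unlike for Egr2 with its 5 entries. A match describes these letters and not a bound site. Absence of a match holds only for these windows, since sites farther from the start, and Egr1 and Egr3, were not searched.

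Compared per exonic length, the order of the genes in LSK cells differed from that in spleen CD11b+ cells. In LSK MxCre libraries Fos was highest with a mean of 1290 RPKM (CPM divided by the exonic length in kilobases), followed by Jun with 894, Fosb with 365, Egr1 with 297, Junb with 293 and Jund with 218 RPKM. Atf3 (27.2), Fosl2 (5.51), Egr2 (1.56) and Egr3 (0.557 RPKM) were far below. Over these 2 libraries the range of Egr1 (241 to 353 RPKM) overlapped those of Fosb (318 to 412) and Junb (274 to 311), so that the place of Egr1 among them is not resolved. In spleen CD11b+ MxCre libraries Junb led with 7170 RPKM, ahead of Jund with 1430 and Atf3 with 1390, whose ranges overlapped, then Jun with 719 and Fos with 650, which also overlapped, and Egr1 with 369 and Fosb with 340. Fosl2 reached 70.9, Egr2 4.78 and Egr3 0.195 RPKM there. In BM CD11b+ MxCre libraries the order is not resolved, with Junb at 706 and 7480, Jund at 621 and 1020, Atf3 at 68.3 and 531 and Egr1 at 26.7 and 476 RPKM (lower and higher library). In spleen S3 libraries Fos (792 RPKM) and Junb (776) had the highest means, followed by Jun with 377, Jund with 317 and Atf3 with 183 RPKM. The ranges of Fos, Junb, Jun and Jund overlapped, and their order differed between the libraries, with Jun (479) above Junb (384) in animal 640 and Jund (423) above Fos (419) in animal 815.

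**Figure D1:**
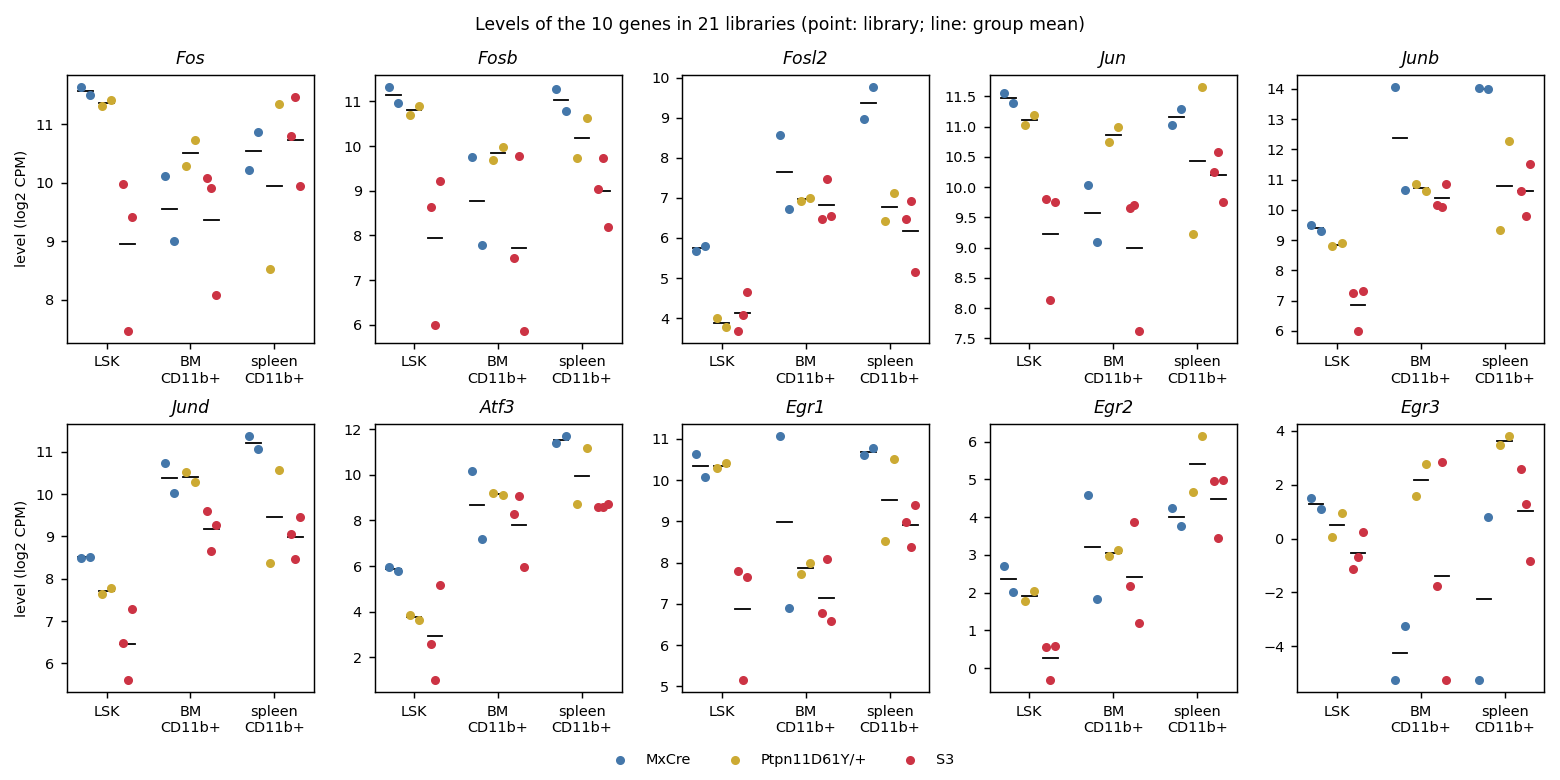
Level of each gene in log2 CPM (vertical axis, a separate scale for each panel) in LSK, BM CD11b+ and spleen CD11b+ libraries. Points are libraries (blue MxCre, yellow Ptpn11D61Y/+, red S3) and black lines group means; the lowest Egr3 points, at -5.26, are libraries with 0 counts and their height is set by the prior count.

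In LSK cells of S3 mice every one of the 10 genes was lower than in MxCre mice in all 3 libraries, although none passed the test across all genes. The log2 fold changes ran from -1.55 for Fosl2 to -3.11 for Egr1 with a median of -2.08, beside a median of 0.01 over all 19555 genes. Groups did not overlap, with S3 lower, in 10 of 10 genes and in 28.9% of all genes. An unadjusted p under 0.05 with a lower level was found for 8 of the 10 genes and for 2.33% of all genes. By edgeR's quasi-likelihood test, Benjamini-Hochberg adjusted 0 of the 10 were called, and 6 genes or 0.0307% were called in all.

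Within the FOS family, Fos, the partner that gives AP-1 its strongest activity, was 11.64 and 11.50 log2 CPM in LSK MxCre and 11.31 and 11.41 in Ptpn11D61Y/+, against 9.98, 9.42 and 7.47 in S3 animals 540, 815 and 768. The S3 libraries lay below all 4 control libraries, and animal 768 lay lowest. Fos differed by -2.28 ± 0.77 (log2, SE; adjusted p = 0.872 by edgeR's quasi-likelihood test). Fosb, a close relative of Fos, followed with 11.33 and 10.96 in MxCre, 10.70 and 10.90 in Ptpn11D61Y/+ and 8.63, 9.21 and 6.0 in S3 (-2.7 ± 0.921). Fosl2, which encodes FRA-2, a FOS protein without the strong activation domain of Fos, behaved differently between the controls. It was 5.67 and 5.81 log2 CPM in MxCre but 4.01 and 3.77 in Ptpn11D61Y/+, and the S3 libraries at 3.69, 4.65 and 4.07 overlapped the latter.

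Within the JUN family, Jun was 11.56 and 11.39 log2 CPM in LSK MxCre, 11.03 and 11.19 in Ptpn11D61Y/+ and 9.81, 9.76 and 8.13 in S3 animals 540, 815 and 768. Junb was 9.49 and 9.30 in MxCre, 8.80 and 8.90 in Ptpn11D61Y/+ and 7.26, 7.31 and 6.01 in S3. Jund, which is usually the most steadily expressed of the 3, was 8.50 and 8.52 in MxCre, 7.63 and 7.79 in Ptpn11D61Y/+ and 6.49, 7.29 and 5.60 in S3. For each of the 3 genes the order was MxCre, then Ptpn11D61Y/+, then S3, with no overlap between the groups. The S3 differences from MxCre were -2.06 ± 0.66 for Jun, -2.42 ± 0.809 for Junb and -1.89 ± 0.547 for Jund (log2, SE), with unadjusted p of 0.00643, 0.00847 and 0.00319 and adjusted p of 0.822, 0.872 and 0.654 by edgeR's quasi-likelihood test.

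Atf3, the stress-responsive ATF member, was already lower in the Ptpn11D61Y/+ controls. It was 5.97 and 5.77 log2 CPM in LSK MxCre, 3.88 and 3.65 in Ptpn11D61Y/+ and 2.59, 5.17 and 1.0 in S3 animals 540, 815 and 768. The S3 libraries scattered more widely than either control and enclosed the Ptpn11D61Y/+ values. Egr1, a direct ERK target, was 10.63 and 10.08 in MxCre, 10.29 and 10.42 in Ptpn11D61Y/+ and 7.81, 7.66 and 5.15 in S3. Both controls stood at a mean of 10.35 log2 CPM and S3 at 6.87 ± 1.49 (SD, n = 3). Egr1 differed from MxCre by -3.11 ± 0.896 (adjusted p = 0.654 by edgeR's quasi-likelihood test) and from Ptpn11D61Y/+ by -3.09 ± 0.896 (adjusted p = 0.398 by the same test). Egr2 was low throughout, with 2.72 and 2.03 in MxCre, 1.79 and 2.05 in Ptpn11D61Y/+ and 0.57, 0.58 and -0.32 in S3 (-2.1 ± 0.763 from MxCre). Egr3 had 342 and 222 counts in MxCre, 159 and 228 in Ptpn11D61Y/+ and 59, 110 and 79 in S3.

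The LSK count changed with the libraries fitted. A fit of only the LSK MxCre and S3 libraries, with its own filter, scaling and spread, called 4 of the 10 (Fosl2, Junb, Egr2 and Egr3), beside 4700 genes or 26.8% in all. Leaving out animal 768 gave a median of -1.77 with all 10 still lower, and leaving out animal 540, whose CD11b+ libraries held both sex markers, gave -2.28. By Xist and Ddx3y counts, all 4 LSK control libraries (Xist 9 to 17) and LSK S3 540 (Xist 1) were male, while LSK S3 815 and 768 (Xist 39460 and 88850, Ddx3y 0 in both) were female. Sex and disease are thus unevenly combined in this comparison, and the part of sex was not tested. Against Ptpn11D61Y/+ as control, 6 of the 10 had an unadjusted p under 0.05 with S3 lower, beside 3.28% of all genes, and 0 of 10 were called (19 genes, 0.0972%, in all). In that comparison Fosl2 (0.3 ± 0.54) and Atf3 (0.1 ± 1.02) did not share the direction.

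Markers of other cells also differed in the LSK gate. Summed over 8 genes, mature neutrophil markers were 1640 and 1420 CPM in LSK MxCre, 348 and 301 CPM in Ptpn11D61Y/+ and 580, 944 and 734 CPM in S3 animals 540, 815 and 768, with S100a9 or Csf3r the most abundant. Mmp8 (-5.33 ± 0.797, adjusted p = 0.024) and Mmp9 (-5.06 ± 0.571, adjusted p = 0.00256) fell in S3, both granule proteases of neutrophils, as did the globin gene Hbb-bs (-5.13 ± 0.821, adjusted p = 0.0356; edgeR's quasi-likelihood test). Summed over 10 genes, erythroid markers were 1620 and 902 CPM in MxCre, 182 and 130 CPM in Ptpn11D61Y/+ and 279, 197 and 213 CPM in S3, while immature neutrophil markers were 3380 and 2770, 2730 and 2670, and 5020, 4920 and 6310 CPM. Mature neutrophil and erythroid sums were highest in MxCre and immature neutrophil sums highest in S3. The part of these cells in the result was not tested. In sorted bulk cells fewer cells of a type and less RNA per cell cannot be told apart.

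In CD11b+ cells of the spleen, Fosl2, Junb and Jund fell in S3, while the Fos libraries of MxCre and S3 overlapped. These 3 of 10 genes were called lower by edgeR's quasi-likelihood test, Benjamini-Hochberg adjusted, beside 523 genes or 2.67% called lower in all and 4.19% called in either direction. Groups did not overlap, with S3 lower, for 7 of the 10, beside 12.9% of all genes. The median change of the 10 was -1.82 (log2), and that of all genes 0.32.

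Junb was 1 of the 3 called genes. It was 14.02 and 14.00 log2 CPM in spleen MxCre, 9.34 and 12.27 in Ptpn11D61Y/+ and 10.63, 11.50 and 9.79 in S3 animals 540, 815 and 640. The 2 MxCre libraries had an SD of 0.0178 and lay above all others, and the 2 Ptpn11D61Y/+ libraries enclosed the S3 values. Junb was 9.24-fold lower in S3 than in MxCre (-3.21 ± 0.826 on the log2 scale, adjusted p = 0.04 by edgeR's quasi-likelihood test). Jund was 11.36 and 11.06 in MxCre, 8.36 and 10.57 in Ptpn11D61Y/+ and 9.05, 9.46 and 8.46 in S3, which is 4.52-fold lower (-2.18 ± 0.549, adjusted p = 0.0372 by the same test). Jun, in contrast, was 11.02 and 11.29 in MxCre, 9.22 and 11.66 in Ptpn11D61Y/+ and 10.25, 9.75 and 10.58 in S3 (-0.93 ± 0.655, adjusted p = 0.374). All S3 libraries lay below MxCre, without passing the test.

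Among the FOS genes, Fosl2 was 8.96 and 9.77 log2 CPM in spleen MxCre, 6.41 and 7.11 in Ptpn11D61Y/+ and 6.47, 5.14 and 6.91 in S3 animals 540, 815 and 640. Both other genotypes lay below MxCre without overlap. Fosl2 fell 8.44-fold in S3 (-3.08 ± 0.545, adjusted p = 0.00904 by edgeR's quasi-likelihood test), and of the 3 called genes it was the only one still called when any single library was left out (adjusted p from 0.0131 to 0.0355). It was not called in a fit of only the spleen MxCre and S3 libraries (-3.14, adjusted p = 0.113) or against both control genotypes together (-2.3, adjusted p = 0.244 by edgeR's quasi-likelihood test), where 0% of all genes were called in either fit. Fos was 10.22 and 10.87 in MxCre, 8.53 and 11.35 in Ptpn11D61Y/+ and 10.79, 9.95 and 11.47 in S3. The 3 groups overlapped, and the difference of 0.28 ± 0.777 turned to -0.15 without S3 animal 640. Fosb was 11.27 and 10.79 in MxCre, 9.74 and 10.64 in Ptpn11D61Y/+ and 9.05, 8.20 and 9.74 in S3 (-1.92 ± 0.907, adjusted p = 0.198).

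Atf3 was 11.40 and 11.68 log2 CPM in spleen MxCre, 8.71 and 11.19 in Ptpn11D61Y/+ and 8.58, 8.71 and 8.58 in S3. The S3 libraries agreed closely and lay 7.57-fold below MxCre, a difference that did not pass the test (-2.92 ± 1.03, adjusted p = 0.103 by edgeR's quasi-likelihood test, 0.0251 by DESeq2). Egr1 was 10.61 and 10.77 in MxCre, 8.52 and 10.52 in Ptpn11D61Y/+ and 8.98, 9.40 and 8.39 in S3 (-1.71 ± 0.871, adjusted p = 0.227). Egr2 was among the 3 genes with a log2 fold change above 0, beside Fos and Egr3. It was 4.25 and 3.76 in MxCre, 4.68 and 6.14 in Ptpn11D61Y/+ and 4.96, 4.99 and 3.46 in S3, and overlapped between MxCre and S3 (0.6 ± 0.777). Egr3 had 0 and 79 counts in MxCre, 677 and 837 in Ptpn11D61Y/+ and 393, 27 and 206 in S3 animals 540, 815 and 640, and its adjusted p was 0.523.

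Junb and Jund were each called in 1 of 5 fits that left out 1 library, while their values ran from -3.74 to -2.88 and from -2.44 to -1.95. Neither was called in a fit of only the spleen MxCre and S3 libraries (-3.29 and -2.26, adjusted p = 0.126 and 0.143). Against both control genotypes together they were at -2.44 and -1.65 (adjusted p = 0.335 and 0.24), also not called. Junb was not called without the filter on low counts (-3.19, adjusted p = 0.0567, all by edgeR's quasi-likelihood test). Jund was not called without the 3 libraries with the fewest genes (-2.01), a fit that leaves 1 spleen MxCre library. Only Fosl2 was called without MxCre 1 (1.66% of all genes called), without MxCre 2 (3.67%), without S3 640 (2.49%) or without S3 540 (1.37%), the library with both sex markers. Without S3 540 the values were -3.14 for Fosl2 (adjusted p = 0.0355), -3.13 for Junb (adjusted p = 0.106) and -2.18 for Jund (adjusted p = 0.093 by edgeR's quasi-likelihood test). By these markers both spleen MxCre libraries were male (Xist 0 and 4, Ddx3y 4395 and 2500). Spleen S3 815 was female (Xist 3941, Ddx3y 0) and spleen S3 640 male (Xist 1, Ddx3y 4410). Sex and disease are thus unevenly combined here too, and the part of sex was not tested.

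In the spleen, heat shock, erythroid and monocyte marker sums did not overlap between MxCre and S3. Mature neutrophil, macrophage and B cell sums did overlap. Summed over 11 heat shock genes, whose transcripts also respond to the handling of cells, the level was 10800 and 7720 CPM in MxCre, 5630 and 7180 CPM in Ptpn11D61Y/+ and 6510, 3910 and 3950 CPM in S3 animals 540, 815 and 640, with Hsp90ab1 or Hspa8 the most abundant. Erythroid markers summed to 3490 and 1180 CPM in MxCre, 5190 and 1190 CPM in Ptpn11D61Y/+ and 14600, 16000 and 29500 CPM in S3, and Hbb-bs (3.73 ± 0.884, adjusted p = 0.0278) and Alas2 (6.15 ± 1.36, adjusted p = 0.0219), the first enzyme of erythroid heme synthesis, rose. Mature neutrophil markers summed to 43100 and 99300 CPM in MxCre, 2480 and 6090 CPM in Ptpn11D61Y/+ and 57200, 25300 and 20800 CPM in S3, and Csf3r, the G-CSF receptor, fell (-3.49 ± 0.693, adjusted p = 0.0137; edgeR's quasi-likelihood test). Monocyte markers summed to 6930 and 5750 CPM in MxCre, 2070 and 4590 CPM in Ptpn11D61Y/+ and 2480, 2560 and 2630 CPM in S3, a list that includes the immediate-early gene Nr4a1. Most of the MxCre sums was Nr4a1, at 5370 and 3860 CPM, against 1070 CPM in S3 815. In S3 540 and 640 Csf1r was the most abundant of the list, at 974 and 1130 CPM. The monocyte sums thus do not show a fall of the list apart from Nr4a1. Macrophage markers, summed over 8 genes, were 6010 and 5020, 5160 and 2400, and 7300, 8220 and 4560 CPM, and B cell markers 214 and 94.5, 1390 and 2000, and 881, 794 and 79.9 CPM in the same order. No marker of these lists was at 0 in these libraries. Their part in the result was not tested.

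**Figure D2:**
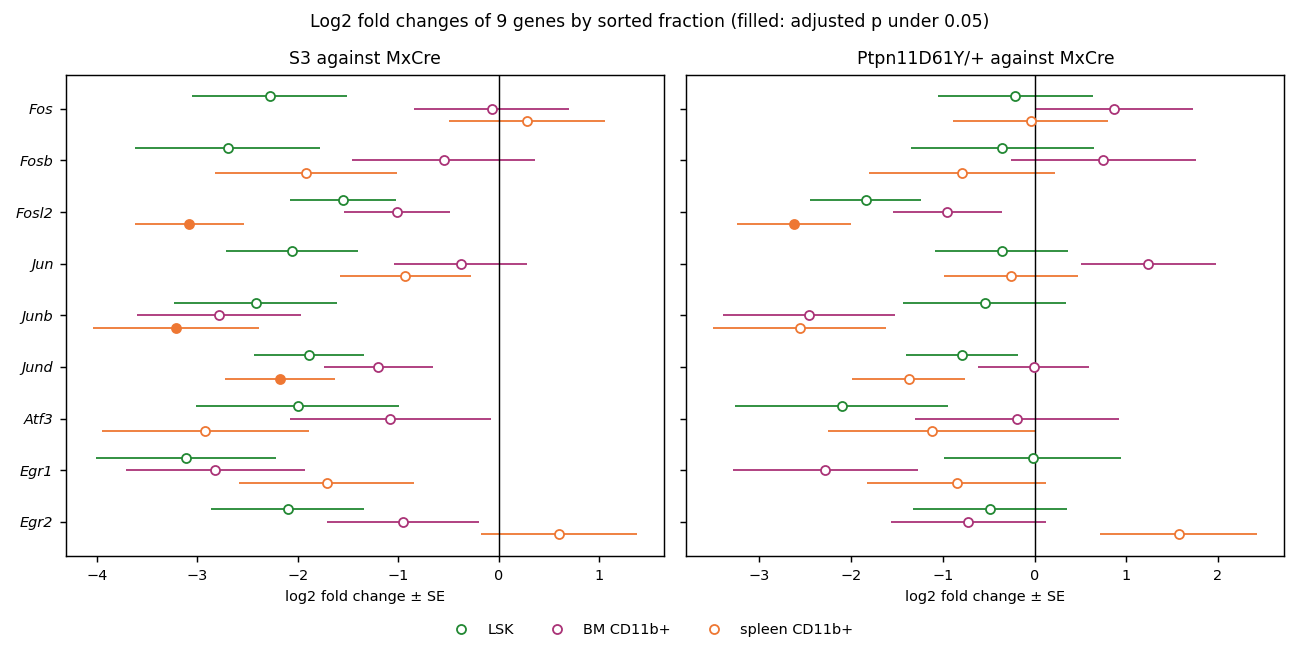
Log2 fold changes ± SE (horizontal axis) of 9 of the genes against MxCre, for S3 on the left and Ptpn11D61Y/+ on the right, in LSK (green), BM CD11b+ (purple) and spleen CD11b+ cells (orange). Filled points passed an adjusted p of 0.05, which were Fosl2, Junb and Jund in spleen S3 and Fosl2 in spleen Ptpn11D61Y/+; Egr3 is left out because control libraries had 0 counts.

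In CD11b+ cells of the BM no gene in the table was called between S3 and MxCre (0 of 19555, with 15.5% at an unadjusted p under 0.05), and 7 of the 10 genes changed direction when 1 control library, MxCre 1, was left out. Junb was 14.07 log2 CPM in BM MxCre 1 but 10.67 in BM MxCre 2, next to 10.85 and 10.62 in Ptpn11D61Y/+ and 10.17, 10.86 and 10.10 in S3 animals 540, 815 and 640. All but the first lay within 1 log2 unit of each other. Egr1 was 11.06 and 6.91 in MxCre, 7.73 and 7.99 in Ptpn11D61Y/+ and 6.79, 6.59 and 8.08 in S3. Atf3 was 10.16 and 7.20 in MxCre, 9.19 and 9.10 in Ptpn11D61Y/+ and 8.28, 5.97 and 9.09 in S3. Fosl2 was 8.56 and 6.71, 6.93 and 7.0, and 6.46, 6.55 and 7.46, and Egr2 was 4.58 and 1.84, 2.98 and 3.14, and 2.17, 1.20 and 3.86 in the same order. MxCre 1 was the highest BM library for Junb, Egr1, Atf3, Fosl2 and Egr2, and also for Jund.

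With both control libraries, Junb differed by -2.78 ± 0.816 (adjusted p = 0.207) and Egr1 by -2.82 ± 0.889 (adjusted p = 0.217 by edgeR's quasi-likelihood test). Without MxCre 1 these became -0.24 and 0.42, and Fos (0.59), Fosb (0.77), Fosl2 (0.2), Jun (0.17), Atf3 (1.06) and Egr2 (1.01) also turned to a higher level in S3. Without MxCre 2, which held both sex markers, Junb (-3.64, adjusted p = 0.00889) and Egr1 (-3.73, adjusted p = 0.00958) were called by edgeR's quasi-likelihood test, beside 9.75% of all genes. Jund kept its direction, with -1.2 ± 0.544 from all libraries (adjusted p = 0.309) and -0.79 without MxCre 1. It was 10.73 and 10.02 in MxCre, 10.52 and 10.28 in Ptpn11D61Y/+ and 9.60, 9.26 and 8.66 in S3, and was the only 1 of the 10 whose S3 and MxCre libraries did not overlap with S3 lower (5.49% of all genes).

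**Figure D3:**
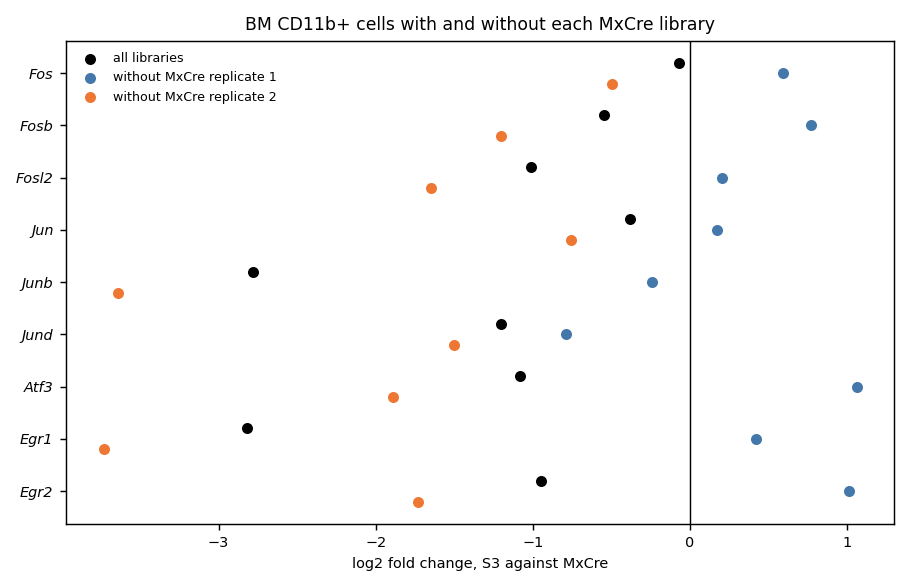
Log2 fold change of S3 against MxCre in BM CD11b+ cells (horizontal axis) of 9 of the genes with all libraries (black), without MxCre replicate 1 (blue) and without MxCre replicate 2 (orange). Without replicate 1, 7 genes lie to the right of 0 and only Junb and Jund stay to the left.

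Fos, Fosb and Jun did not follow MxCre 1 as closely. Fos was 10.11 and 9.0 log2 CPM in BM MxCre, 10.28 and 10.73 in Ptpn11D61Y/+ and 10.08, 8.08 and 9.90 in S3 animals 540, 815 and 640. Jun was 10.03 and 9.10, 10.74 and 11.00, and 9.66, 7.63 and 9.70, and Fosb was 9.76 and 7.79, 9.68 and 9.99, and 7.50, 5.87 and 9.78 in the same order. Animal 815 was the lowest BM library for all 3 genes, and without it Fos (0.33) and Jun (0.04) also turned to a higher level in S3. It was also 1 of the 3 libraries in which the fewest genes had a count. Egr3 had 0 and 3 counts in MxCre, 157 and 374 in Ptpn11D61Y/+ and 12, 0 and 617 in S3, so that a fold change would only reflect the prior count.

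BM MxCre 1 also differed from BM MxCre 2 in its cell markers. Macrophage markers summed to 16000 and 467 CPM in the 2 MxCre libraries, with C1qa alone at 6280 and 148 CPM, to 348 and 377 CPM in Ptpn11D61Y/+ and to 1580, 1940 and 2660 CPM in S3 animals 540, 815 and 640. Erythroid markers summed to 50100 and 224000 CPM in MxCre, 162000 and 163000 CPM in Ptpn11D61Y/+ and 68600, 125000 and 14900 CPM in S3, with a globin gene the most abundant in each. Heat shock genes summed to 4450 and 2920, 2970 and 3940, and 4530, 2960 and 3480 CPM. The part of these cells in the Junb and Egr1 values was not tested. Whether reads were counted by strand is not given in the sources used here. Prdx2, a peroxidase gene that overlaps Junb on the opposite strand, was 9.04 and 11.36 log2 CPM in BM MxCre, 10.82 and 10.48 in Ptpn11D61Y/+ and 10.44, 11.19 and 7.21 in S3 animals 540, 815 and 640. It did not follow Junb in 1 direction, being lower in MxCre 1 than in MxCre 2 but lower in animal 640 than in animal 815.

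Whether the S3 difference was unequal between fractions was tested by interaction terms, and 0 of the 10 genes were called in any of the 3 tests (1, 0 and 0 genes in all, which is 0.00511%, 0% and 0%). These terms came from the fit over all 21 libraries, which did not pair the S3 animals shared between fractions. At an unadjusted p under 0.05 the difference between spleen and LSK cells was 2.57 ± 1.11 for Fos (adjusted p = 0.347) and 2.7 ± 1.1 for Egr2 (adjusted p = 0.326), both with the higher S3 value relative to MxCre in the spleen. Fosl2 differed by -2.06 ± 0.766 between spleen and BM cells (adjusted p = 0.363 by edgeR's quasi-likelihood test). In the third test, between BM and LSK cells, Egr3 alone had an unadjusted p under 0.05. An unadjusted p under 0.05 was found for 13.4% of all genes between spleen and LSK cells, 10.7% between spleen and BM cells and 8.12% between BM and LSK cells.

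The genes also divided by cell type, in both MxCre and S3 mice. Fosl2, Junb, Jund and Atf3 were higher in CD11b+ cells of either organ than in LSK cells, whereas Fos, Fosb, Jun and Egr1 were not called in these comparisons by the fit over all 21 libraries. In MxCre, spleen CD11b+ cells had 24.5-fold more Junb (4.62 ± 1.03, adjusted p = 0.00325), 50.9-fold more Atf3 (5.67 ± 1.36, adjusted p = 0.00495), 12.9-fold more Fosl2 (3.68 ± 0.653, adjusted p = 0.000712) and 6.57-fold more Jund (2.72 ± 0.644, adjusted p = 0.00461 by edgeR's quasi-likelihood test) than LSK cells. Of the 10 genes, 4 were thus called higher, beside 19.2% of all genes. A fit of only these 2 groups also called Fos lower (-1.29, adjusted p = 0.0253 by the same test). Fos was lower in both spleen MxCre libraries than in both LSK MxCre libraries without being called (-0.99 ± 0.853), and Jun likewise (-0.31 ± 0.728). Atf3 was not called without LSK MxCre 2 (5.5, adjusted p = 0.0511 by edgeR's quasi-likelihood test).

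BM CD11b+ cells showed these 4 genes in MxCre, beside 16.6% of all genes called higher. They were Junb (3.81 ± 0.991, adjusted p = 0.00959), Fosl2 (2.18 ± 0.612, adjusted p = 0.0139), Jund (1.91 ± 0.625, adjusted p = 0.0267) and Atf3 (3.46 ± 1.22, adjusted p = 0.0375 by edgeR's quasi-likelihood test). When libraries were scaled by size alone, Fos (-2.98, adjusted p = 0.0186), Fosb (-3.14, adjusted p = 0.0414) and Jun (-2.9, adjusted p = 0.0107) were called lower, and Fosl2 (1.1), Jund (0.85) and Atf3 (2.38) were not called. DESeq2 also called Fos (-1.92, adjusted p = 0.0494) and Jun (-1.85, adjusted p = 0.028) lower. Egr3, with 0 and 3 counts in BM MxCre and 342 and 222 in LSK MxCre, was also called lower with DESeq2 (adjusted p = 0.00666), limma-voom (adjusted p = 0.022) and scaling by size alone (adjusted p = 0.0355). Without BM MxCre 1 the values of Junb, Fosl2, Jund and Atf3 were 1.25, 0.95, 1.49 and 1.30 and none of them was called, while Egr1 was called lower than in LSK cells (-3.5, adjusted p = 0.0433 by edgeR's quasi-likelihood test). In that fit 15% of all genes were called. Without LSK MxCre 1 the values of Junb, Fosl2, Jund and Atf3 were 3.86, 2.07, 1.87 and 3.52, and without LSK MxCre 2 they were 3.66, 2.2, 1.88 and 3.31. These lie near the values from all libraries. None of the 10 was called in either fit, each of which leaves 1 LSK MxCre library.

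In S3 mice 5 of the 10 genes were called higher in each CD11b+ fraction than in LSK cells, the same 4 and Egr2 (15.8% of all genes called higher for the spleen and 14.4% for the BM). In the spleen they differed by 3.83 ± 0.81 for Junb, 2.43 ± 0.52 for Jund, 2.15 ± 0.5 for Fosl2, 4.75 ± 1.06 for Atf3 and 4.32 ± 0.784 for Egr2, with adjusted p from 0.00113 to 0.00566. In the BM they differed by 3.45 ± 0.796, 2.61 ± 0.523, 2.71 ± 0.511, 4.38 ± 1.04 and 2.53 ± 0.726, with adjusted p from 0.00162 to 0.0186 (edgeR's quasi-likelihood test). Since the labels name mice 540 and 815 in all 3 fractions, a fit with the animal as a block was also made. Xist and Ddx3y counts disagreed, however, between the LSK and CD11b+ libraries of animal 540. That fit also took the replicate numbers of the controls as blocks. Animal 768, with an LSK library only, does not enter its differences between fractions, and 640 has no LSK library. The values of that fit thus differ from those above in the animals used as well as in the pairing. Egr2 in the BM was called in 3 of 6 fits that left out 1 library, not without LSK S3 540 (2.65), LSK S3 768 (2.27) or BM S3 640 (1.46, adjusted p = 0.093 by edgeR's quasi-likelihood test). With the block Fosl2 was not called in the spleen (1.68, adjusted p = 0.0599), and Atf3 (3.62, adjusted p = 0.0554) and Egr2 (1.83, adjusted p = 0.141) were not called in the BM, where Fosb was called lower than in LSK cells (-1.92, adjusted p = 0.0416 by edgeR's quasi-likelihood test). Between spleen and BM CD11b+ cells 0 of 10 genes were called in MxCre (0.915% of all genes) or in S3 (0.0563%), with Fosl2 in MxCre and Egr2 in S3 at an unadjusted p under 0.05 (19.8% and 9.77% of all genes). Without BM MxCre 1, Fosl2 was called higher in spleen MxCre cells (2.72, adjusted p = 0.0393 by edgeR's quasi-likelihood test), beside 5.5% of all genes.

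**Figure D4:**
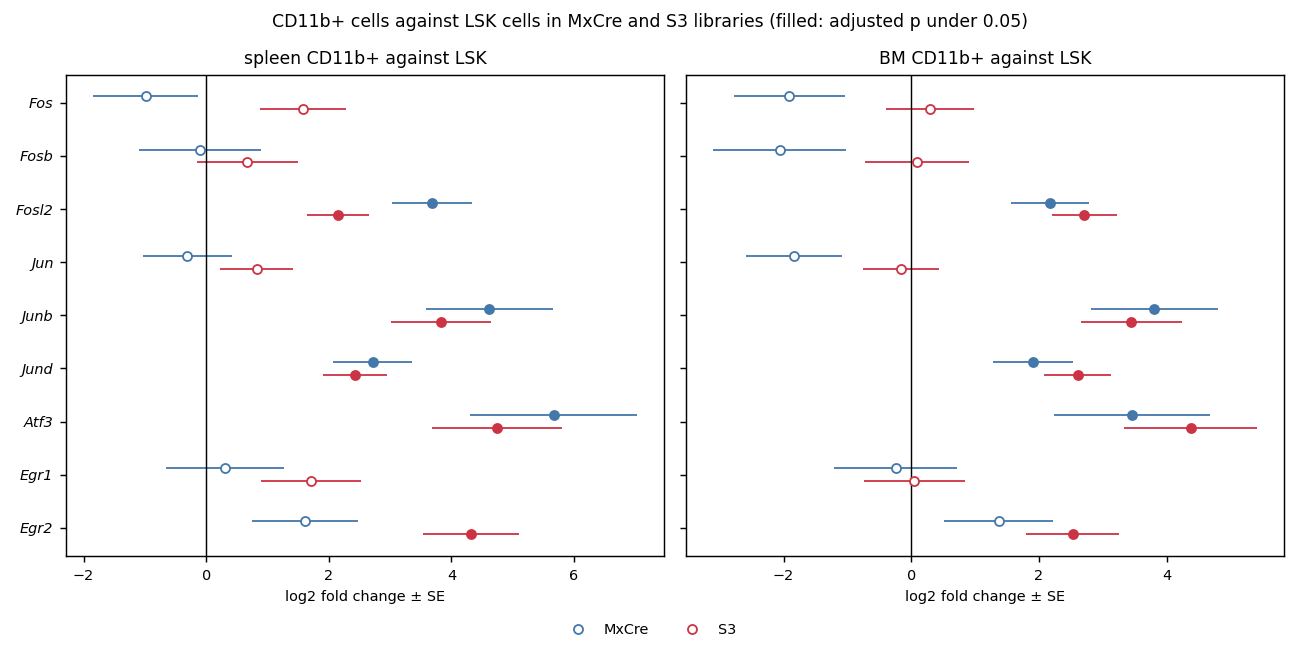
Log2 fold change ± SE (horizontal axis) of spleen CD11b+ (left) and BM CD11b+ cells (right) against LSK cells for 9 of the genes, in MxCre (blue) and S3 (red). Filled points passed an adjusted p of 0.05; Fosl2, Junb, Jund and Atf3 are filled in both panels and both genotypes, and Egr2 in S3 only.

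The silent-allele controls, which the study's supplement likens to a heterozygous knock-out of Ptpn11, were compared with MxCre in the same way. In spleen CD11b+ cells Fosl2 fell in Ptpn11D61Y/+ by 2.62 ± 0.623 on the log2 scale (adjusted p = 0.0287 by edgeR's quasi-likelihood test), the only 1 of the 10 genes called, beside 5.11% of all genes and 3.02% called lower. Without spleen Ptpn11D61Y/+ 1, whose sex markers went against its number, Fosl2 was at -2.28. It was at -3.0 without Ptpn11D61Y/+ 2, at -2.14 without MxCre 2 and at -2.97 without MxCre 1. Each of these fits leaves 1 library in a group, and Fosl2 was called only in the last. Junb (-2.56 ± 0.939, adjusted p = 0.11) and Jund (-1.37 ± 0.615, adjusted p = 0.181) had lower values in both libraries. Without Ptpn11D61Y/+ 2, Jund was called (-2.86, adjusted p = 0.0486 by edgeR's quasi-likelihood test), beside 2.11% of all genes. Ptpn11D61Y/+ 1, the library with the high mitochondrial share, was the lower of both for all 10 genes. Fosl2 was 6.41 log2 CPM in it against 7.11 in Ptpn11D61Y/+ 2, and the part of RNA quality was not tested. In LSK cells all 10 had a log2 fold change below 0, from -0.02 for Egr1 to -2.1 for Atf3, as did 50.7% of all genes, and 8 of 10 did not overlap with MxCre, beside 29.4% of all genes. None of the 10 was called there (12 genes, 0.0614%). A fit of only the LSK MxCre and Ptpn11D61Y/+ libraries called 5 of the 10 (Fosl2, Jun, Junb, Jund and Atf3), beside 2508 of 17688 genes. With the replicate number as a block 4 of the 10 were called, beside 1653 of 17688 genes. In the BM 0 genes were called with all libraries, while without BM MxCre 2 Junb (-3.31, adjusted p = 0.0208) and Egr1 (-3.18, adjusted p = 0.0284) were called by edgeR's quasi-likelihood test, beside 13.6% of all genes. Fos (0.87 ± 0.851) and Jun (1.24 ± 0.738) were higher in both Ptpn11D61Y/+ libraries than in both MxCre libraries, as was Egr3. Groups did not overlap with Ptpn11D61Y/+ higher for these 3 of 10, beside 38.7% of all genes.

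Between S3 and Ptpn11D61Y/+ none of the 10 was called in BM (0% of all genes) or spleen CD11b+ cells (0.00511%). Fosl2, Junb and Jund, which fell from MxCre to S3 in the spleen, differed there by -0.46 ± 0.531, -0.64 ± 0.8 and -0.8 ± 0.545, and the groups overlapped for each. The S3 comparisons with the 2 controls share the S3 libraries, and those with MxCre share the MxCre libraries.

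Other genes around the 2 families were followed as lists. Of 24 other immediate-early genes, 21 were lower and 3 higher in LSK S3 cells than in MxCre (median -1.88, all genes 0.01), 15 of them lower at an unadjusted p under 0.05 (2.33% of all genes) and 0 called. In the spleen 23 of 24 were lower (median -1.86, all genes 0.32) and 3 were called lower (2.67% of all genes). Gadd45b, a stress-response gene, fell by 4.43 ± 0.844 (adjusted p = 0.0108), from 9.72 and 11.14 log2 CPM in MxCre to 6.64, 6.19 and 5.42 in S3. Csrnp1, a nuclear immediate-early gene, fell by 3.95 ± 0.606 (adjusted p = 0.00532), and Klf2, a zinc-finger factor of quiescent leukocytes, fell by 2.47 ± 0.672 (adjusted p = 0.0494 by edgeR's quasi-likelihood test). In the BM 17 of 24 were lower (median -1.07, all genes 0.18) and 0 were called.

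The lists that act with or before the 10 genes were mixed. Of 12 other AP-1 basic leucine zipper genes, 5 were higher and 7 lower in LSK S3 cells (median -0.07), 4 and 8 in the BM (-0.03) and 6 and 6 in the spleen (-0.29), where Jdp2, a repressor of AP-1, fell by 1.47 ± 0.377 (adjusted p = 0.0391). Of 15 kinases and SRF-TCF factors upstream of these genes, 10 were higher and 5 lower in LSK cells (median 0.12), 7 and 8 in the BM (-0.04) and 6 and 9 in the spleen (-0.15). Mapkapk2, the kinase downstream of p38, was the only one of them called, with a fall of 1.88 ± 0.31 in the spleen (2.67% of all genes called lower there; adjusted p = 0.00687 by edgeR's quasi-likelihood test). Egr4 and the EGR corepressors Nab1 and Nab2 had medians of -0.14 in LSK, 0.57 in BM and 0.75 in spleen cells with 0 of 3 called. Of 11 heat shock genes, 6 were higher and 5 lower in LSK cells (median 0.03), 4 and 7 in the BM (-0.62) and 1 and 10 in the spleen (-1.54), where the cochaperone Dnajb1 fell by 2.2 ± 0.47 (adjusted p = 0.019 by edgeR's quasi-likelihood test). The part of cell handling in the results was not tested.

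In the Ptpn11D61Y/+ spleen, 21 of the 24 other immediate-early genes and 10 of the 11 heat shock genes were also lower than in MxCre (medians -1.36 and -0.76, all genes 0.20). Called lower, beside 3.02% of all genes, were Csrnp1 (-2.55 ± 0.671, adjusted p = 0.0395), Jdp2 (-2.51 ± 0.442, adjusted p = 0.0115) and Mapkapk2 (-2.02 ± 0.355, adjusted p = 0.0115). So were Mapk3, which encodes ERK1 (-1.88 ± 0.51, adjusted p = 0.0442), and the small MAF gene Mafg (-1.36 ± 0.335, adjusted p = 0.0326, all by edgeR's quasi-likelihood test). The compared libraries include spleen Ptpn11D61Y/+ 1, with its high mitochondrial share and its sex markers against its number. The part of RNA quality in these calls was not tested.

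Across the 21 libraries some of the genes varied together and others did not. The points of these correlations share libraries, depth and group membership, and they are given as a description. Over 45 pairs the median Pearson r of the levels was 0.41, from -0.28 to 0.94, with 18 pairs above 0.5 and 3 below 0. Junb and Jund had the highest r (0.94), followed by Fos and Jun (0.93). Fosl2 went with Junb (0.87), Jund (0.85) and Atf3 (0.89) but not with Fos (0.1) or Jun (0.19), and Fos and Junb had an r of 0.26. After the mean of each of the 9 groups was subtracted, the median r was 0.57 (25 pairs above 0.5), and Fos and Jun reached 0.97. On that scale Junb and Jund had an r of 0.8, Fos and Junb 0.45, and Fosl2 had 0.5 with Fos, 0.49 with Jun, 0.3 with Junb and 0.07 with Jund, so that the pairing of Fosl2 with Junb and Jund was not seen within groups.

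**Figure D5:**
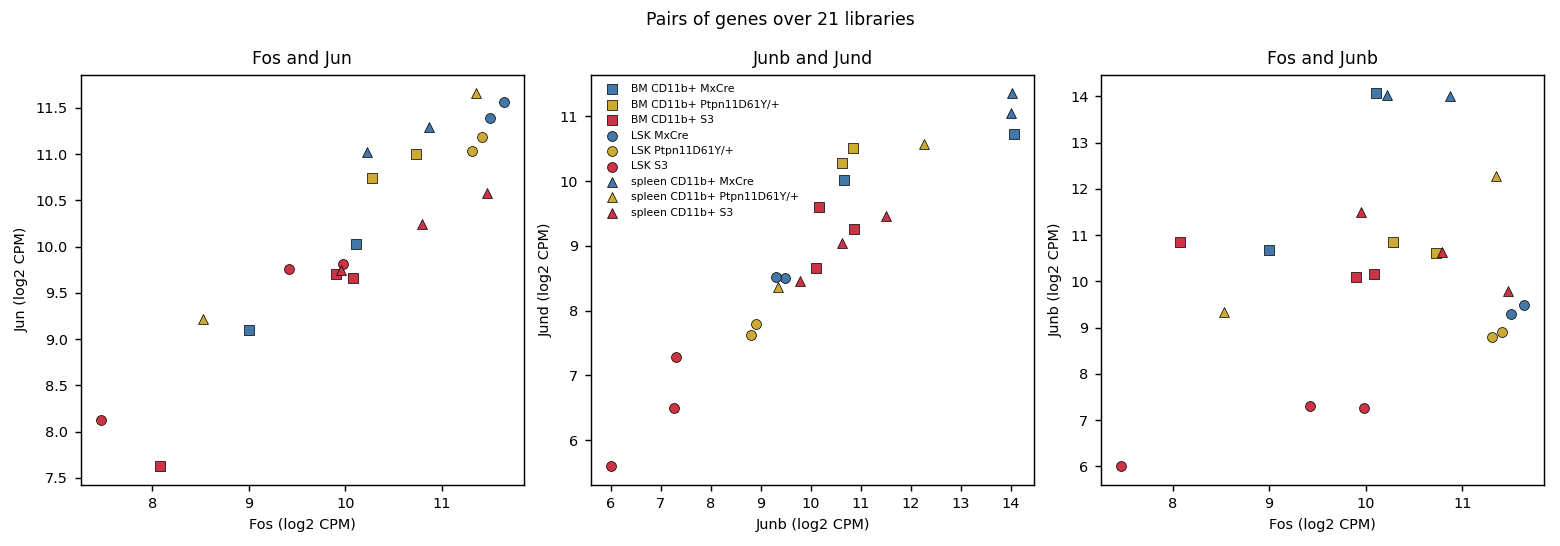
Levels in log2 CPM of Fos and Jun, Junb and Jund, and Fos and Junb over 21 libraries. Circles are LSK, squares BM CD11b+ and triangles spleen CD11b+ libraries (blue MxCre, yellow Ptpn11D61Y/+, red S3); the first 2 panels form a band (r = 0.93 and 0.94), while in the third LSK libraries lie below CD11b+ libraries at the same Fos level (r = 0.26).

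By range over the 21 libraries, Atf3 spanned 10.68 log2 units, from 1.0 in LSK S3 768 to 11.68 in spleen MxCre 2, and Junb 8.06, from 6.01 to 14.07. Egr3 spanned 9.04, but its lowest value came from 0 counts and was set by the prior count. Fos and Jun spanned 4.18 and 4.03. LSK S3 768 was the lowest of all libraries for Fos, Junb, Jund, Atf3, Egr1 and Egr2. The genes outside the 10 whose levels were most like their mean z-score, among 8758 genes over 21 libraries, were Sik1 (r = 0.931), Klf6 (0.922), Plk2 (0.913), Nfkbiz (0.907) and Dusp1 (0.895). With the group means subtracted they were Klf6 (r = 0.925), Dusp1 (0.916), Rgs1 (0.911), Csrnp1 (0.898) and Dnajb9 (0.892). Klf6, Plk2, Dusp1 and Csrnp1 were also on the list of other immediate-early genes.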

How the data were processed

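RNA of 21 sorted mouse libraries was sequenced on a stranded mRNA protocol. According to the submitters' processing notes, bcl2fastq 2.20.0.422, FastQC 0.11.9, Trim Galore 0.6.5, STAR 2.5.3a and limma were used with the mm10 build; the counting program, its annotation and its use of strand are not given in the sources used here. The authors deposited whole-number read counts per Ensembl gene and library, without normalization. The labels give 2 MxCre, 2 Ptpn11D61Y/+ and 3 S3 libraries per fraction.

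From the counts, edgeR 4.0.16 (R 4.3.3) kept genes with filterByExpr over 9 groups (minimum count 10, minimum total 15; 19555 of 45706), set TMM factors and fitted a robust quasi-likelihood model to all 21 libraries (12 residual degrees of freedom), with 18 contrasts and Benjamini-Hochberg adjustment over all genes at 0.05. For levels, a prior count of 2 was added before log2 CPM were taken. RPKM used exon lengths of the Ensembl-based annotation on GRCm38, which gave symbols to 45143 genes. Promoters came from RefSeq (GRCm38.p6). The steps were tested on simulated data. DESeq2 1.42.0 and limma-voom (limma 3.58.1) were alternatives.

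The 10 genes and all lists were chosen with earlier results of these data known. Named were these 10, Ptpn11, sex-linked genes, up to 4 called genes of a list by size, and the 5 genes most like the mean z-score of the 10 (among genes averaging 3 log2 CPM or more). Genes named from the Ptpn11D61Y/+ comparison, marker genes and Prdx2 were added after their values were seen. S3 numbers name the mouse in the labels and were taken to pair S3 fractions, although the sex markers of the libraries numbered 540 disagreed. Deviations from group means of same-numbered S3 libraries correlated at 0.0012 and 0.12 between LSK and spleen and at 0.16 and -0.11 between LSK and BM. Between BM and spleen they correlated at 0.22, 0.66 and 0.47.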

Additional observations from a re-analysis of the deposited data

How the results depend on the processing

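Of the comparisons' counts of called genes among the 10, 227 stayed within 1.5 times under an alternative and 31 did not. The 227 include counts that were 0 and stayed at 0, which say nothing on a called gene. A count that stayed does not say that the genes called were the same, and causes were not tested. Shares in brackets are of all genes called in the same fit, and for DESeq2 they are taken over the genes given an adjusted p. With DESeq2 the count was 1 for S3 against MxCre in LSK cells (Egr1; 0.697%), 3 in the BM (Junb, Egr1 and Egr3; 4.93%), 2 for Ptpn11D61Y/+ against MxCre in the BM (9.66%) and 2 in the spleen (16.9%), 1 for S3 against Ptpn11D61Y/+ in LSK cells (1.37%), and 7 for BM against LSK cells in MxCre (46.1%). With limma-voom it was 3 for Ptpn11D61Y/+ against MxCre in the spleen (9.08%), and Egr2 was not called in BM against LSK cells in S3 (adjusted p = 0.0578). Fits of only the groups compared called 4 for S3 against MxCre in LSK cells (26.8%) and 0 in the spleen (0%), 5 for Ptpn11D61Y/+ against MxCre in LSK cells (14.2%) and 0 in the spleen (1.74%), 2 for S3 against Ptpn11D61Y/+ in LSK cells (29.2%) and 1 for BM against LSK cells in MxCre (28%). With both control genotypes together S3 called 0 in the spleen (0%), and Egr2 (-0.39) and Egr3 (-1.16) reversed there. With library size alone, chosen after seeing the data, Ptpn11D61Y/+ against MxCre called 0 in the spleen (8.73%), and Fos (0.38), Fosb (0.1) and Jun (0.09) reversed in BM S3 against MxCre; under it the all-gene median of S3 against MxCre went from 0.32 to 0.77 in the spleen and from 0.18 to 0.55 in the BM, and that of spleen against LSK cells in MxCre from -0.34 to -1.49. Without the 3 libraries with the fewest genes, also chosen after seeing the data, BM against LSK cells in MxCre called 1 (32.5%) and spleen against BM cells in MxCre called 1 (6.66%), and in BM S3 against MxCre Fos (1.0), Fosb (1.27), Fosl2 (0.35), Jun (0.59), Atf3 (1.55), Egr1 (0.68) and Egr2 (1.43) reversed.

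Leaving out each library in turn gave 1 to 3 called genes for S3 against MxCre in the spleen, 0 to 2 in the BM and 0 in LSK cells, 0 to 2 for Ptpn11D61Y/+ against MxCre in the BM and 0 to 1 in the spleen, 0 to 4 for BM and 3 to 4 for spleen against LSK cells in MxCre and 0 to 1 (Fosl2) for spleen against BM cells in MxCre. In BM S3 against MxCre the log2 changes ran from -1.89 to 1.06 for Atf3, -3.73 to 0.42 for Egr1, -2.02 to 1.01 for Egr2, -0.5 to 0.59 for Fos, -2.19 to 0.77 for Fosb, -1.65 to 0.2 for Fosl2 and -0.76 to 0.17 for Jun, and in the spleen from -0.15 to 0.66 for Fos. A lone remaining sample was assumed to vary like the other groups.

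With the replicate block, Ptpn11D61Y/+ against MxCre called 4 in LSK cells (Fosl2, Junb, Jund and Atf3; 9.35%) and 2 in the spleen (Fosl2 and Junb; 13%), and BM against LSK cells in MxCre called 6 (36.3%), with Fos, Fosb and Jun lower and without Atf3 (3.11, adjusted p = 0.0617). Control libraries share only a number: same-numbered MxCre and Ptpn11D61Y/+ libraries correlated in their deviations at -0.0062, 0.026 and 0.055. Besides these and the S3 values in the report, the block changed no call of a gene called in the main result. No paired analysis was possible between S3 and a control within a fraction because they share no number.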
